A study of Rattus norvegicus with 30 samples.

Results

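The transcription factors described here are 9 genes that shape endothelial cells: 6 of the ETS family (Erg, Fli1, Ets1, Ets2, Elk3 and Etv6) and the 3 SOX genes of group F, called SOXF (Sox7, Sox17 and Sox18). They are picked by gene symbol and are 9 of the 30562 genes in the deposited table. The rule uses no measured value, but members and gene lists were chosen with earlier results of these data known. All 9 passed the filter on low counts, which left 16171 genes for testing. RNA was sequenced from 30 libraries of lung cells of wild-type rats, sorted with microbeads for CD31, a surface protein of endothelial cells, platelets and some leukocytes. The rats had sham or Glenn surgery 3 weeks earlier, and each surgery was combined with a control, a vitamin A-deficient or a vitamin A-excess diet, with 5 libraries in each of the 6 groups. In the Glenn operation the superior caval vein is connected directly to an artery of the lung, and the lung then receives venous blood without the outflow of the liver. The labels do not say whether each library is a separate animal, nor the rats' strain or age, so p-values measure only the spread between these libraries.

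ETS proteins bind DNA at a short core, GGAA, and many genes that are switched on in endothelial cells carry this core in their enhancers and promoters. Erg and Fli1 are closely related and maintain endothelial identity, Ets1 and Ets2 respond to growth factor signals through MAP kinases, and Elk3 and Etv6 can repress transcription. The SOXF proteins bind a different core, related to ACAAT, often near ETS sites. Sox17 is known for its part in arterial identity, and Sox18 for its part in the start of lymphatic vessels.

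Libraries held 22.03 to 77.6 M estimated counts (M, mega; median 40.0 M). Values below are CPM, counts after each library was scaled to a total of 1 M by the trimmed mean of M-values (TMM), and they are not divided by gene length, so levels are compared between groups and not between genes. The endothelial gene Cdh5 was at 1557 to 2926 CPM in every library and Pecam1, which encodes CD31, at 863 to 1731 CPM, whereas the leukocyte gene Ptprc was at 0.569 to 18.9 CPM. The sorted cells also held type 2 alveolar epithelial RNA, with Sftpc at 15062 to 36185 CPM. Library names fall into 2 number ranges, series A (22 libraries) and series B (8), and the fits hold a term for the series. Series B holds 3 sham deficient, 2 Glenn deficient and 3 Glenn excess libraries. On the excess diet, 2 series A and 3 series B Glenn libraries thus stand against 5 sham libraries of series A. Surgery and series can be told apart only in part there. The histocompatibility gene RT1-CE16 was at 21.9 to 44.4 CPM in 17 libraries and at 407 to 949 CPM in the other 13, which include all of series B, and it was low in every sham excess library.

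Averaged over the 3 diets, 8 of the 9 genes changed with Glenn surgery (edgeR quasi-likelihood test, adjusted p under 0.05), against 48.2% of all genes tested. Erg, Fli1, Ets2 and Sox17 rose, and Ets1, Sox7, Sox18 and Etv6 fell. Elk3 was not called on the TMM scale used here. On a scale set by general endothelial markers, where 89.6% of all called genes were higher against 48.6% on the TMM scale, Etv6 took the other sign and Elk3 was called higher. The median log2 change of the 9 genes was 0.08, and that of all genes tested -0.01. The genes split within each family: among close relatives, Ets2 rose and Ets1 fell, and Sox17 rose while Sox7 and Sox18 fell. On the TMM scale Erg, Ets1, Sox17 and Sox18 changed in the same direction on every diet, 4 of 9 genes (44.4%), compared with 2185 of 16171 genes tested (13.5%). With the endothelial marker scale Ets1 was not called on the deficient and excess diets (edgeR adjusted p 0.0549 and 0.0547). Sox18 was not called there on the deficient diet (edgeR adjusted p 0.0507), while Fli1, Ets2 and Elk3 were called higher on each diet. In bulk RNA, fewer cells of a type and less RNA per cell cannot be told apart.

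**Figure D1:**
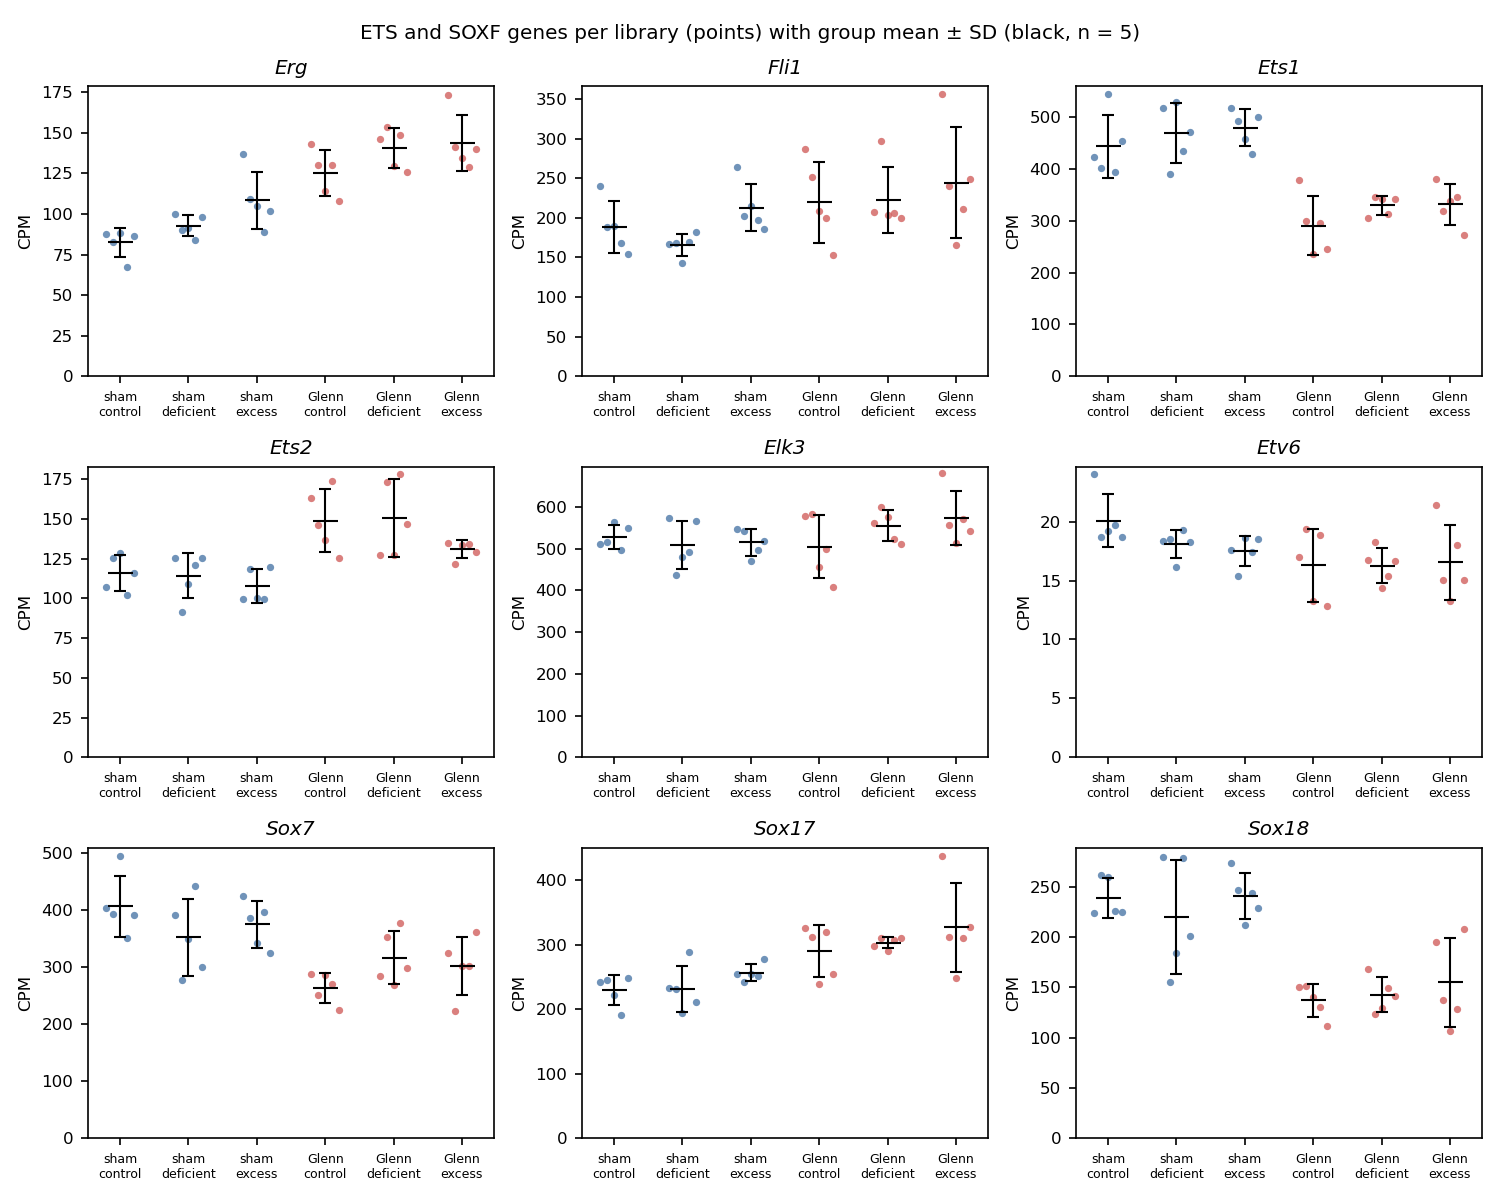
Level of each gene (CPM, y axis from 0) in the 6 groups, with 1 point per library, and the black mark and bars giving the group mean ± SD (n = 5). Erg and Sox17 lie higher and Ets1, Sox7 and Sox18 lower in the Glenn groups (red) than in the sham groups (blue), and only for Ets1 do the 15 libraries of each surgery not overlap.

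Counted by diet, 6 of the 9 genes changed on the control diet (3 rose, 3 fell; 24.9% of all genes), 5 on the deficient diet (3 rose, 2 fell; 27.4%) and 5 on the excess diet (2 rose, 3 fell; 21.9%). Among the 17 RT1-CE16-low libraries alone, with 2 to 5 libraries in a group, the 3 counts were 2, 1 and 2, beside 9.46%, 14.5% and 13.0% of all genes. In the 22 series A libraries alone they were 6, 2 and 2, beside 23.3%, 15.2% and 13.6%. Averaged over diets the count was 7 of 9 in each of these subsets, where Etv6 was the call lost, beside 32.4% of all genes in the RT1-CE16-low and 37.4% in the series A libraries.

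Erg (ENSRNOG00000001652) encodes an ETS factor that keeps the endothelial junction and identity genes active. The control diet gave Erg levels of 87.9, 82.9, 88.4, 67.1 and 86.5 CPM in the sham libraries and 143, 130.5, 114, 130.4 and 108 CPM in the Glenn libraries. With the deficient diet Erg stood at 100.3, 90.5, 91.7, 84.3 and 98 CPM in the sham group and 147, 154, 129, 149 and 126 CPM in the Glenn group. With the excess diet it stood at 137, 109, 105, 88.6 and 102 CPM and 174, 141, 134, 129 and 140.4 CPM. Glenn libraries were above sham libraries without overlap on the control and deficient diets, whereas on the excess diet sham excess replicate 1 reached into the Glenn range. The mean rose from 94.6 ± 15.6 to 137 ± 16.1 CPM (SD, n = 15 per surgery), and the fitted log2 change was 0.55 ± 0.06 (SE; edgeR adjusted p 3.36e-09). By diet the log2 change of Erg was 0.60 (SE 0.10) on the control, 0.58 (SE 0.10) on the deficient and 0.47 (SE 0.11) on the excess diet, with edgeR adjusted p of 2.42e-05, 4.79e-05 and 0.0016. With leukocyte and type 2 alveolar scores in the fit the excess-diet value was 0.34 (edgeR adjusted p 0.0522).

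Fli1 (ENSRNOG00000008904), the closest relative of Erg, spread widely within both surgeries. The 15 sham libraries ranged from 143 to 264 CPM (median 186) and the 15 Glenn libraries from 153 to 356 CPM (median 209), and the ranges overlapped over most of their length. Its mean rose from 189 ± 31.9 to 229 ± 52.7 CPM (SD, n = 15 per surgery), and the fitted log2 change was 0.31 ± 0.09 (SE; edgeR adjusted p 0.00637). No single diet passed the test on the TMM scale, with log2 changes of 0.22, 0.37 and 0.34 on the control, deficient and excess diets (edgeR adjusted p 0.325, 0.0898 and 0.175). With scores for leukocyte and type 2 alveolar markers in the fit, the averaged log2 change was 0.10 (edgeR adjusted p 0.58). Summed type 2 markers ranged from 36654 to 62862 CPM after sham and from 25932 to 59018 CPM after Glenn surgery, and 6 of 6 fell. Summed leukocyte markers ranged from 3.33 to 78.04 and from 4.47 to 31.3 CPM, and none of 6 passed the test. The part of these cells in the Fli1 change was not tested further.

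Ets1 (ENSRNOG00000008941) encodes the founding ETS factor and is induced in growing vessels. On the control diet the Ets1 levels were 423, 401, 544, 394 and 453 CPM in the sham group and 377, 299, 236, 296 and 245 CPM in the Glenn group. Deficient-diet libraries held 517, 389, 528, 434 and 472 CPM of Ets1 in the sham group and 305, 346, 341, 312 and 342 CPM in the Glenn group. Excess-diet libraries held 517, 491, 458, 428 and 500.3 CPM and 379, 319, 338, 346 and 273 CPM. Every Glenn library was below every sham library, a separation of 15 against 15 seen for 5.83% of all genes tested and, among the 9, for Ets1 alone. The mean fell from 463 ± 51.2 to 317 ± 42.7 CPM (SD, n = 15 per surgery), and the fitted log2 change was -0.55 ± 0.07 (SE; edgeR adjusted p 4.86e-08). Its log2 changes on the control, deficient and excess diets were -0.61, -0.51 and -0.52 (edgeR adjusted p 0.000116, 0.000949 and 0.00262). With libraries scaled to their endothelial markers the averaged log2 change of Ets1 was -0.26 (edgeR adjusted p 0.000349). On that scale its deficient-diet and excess-diet values were -0.25 and -0.29 (edgeR adjusted p 0.0549 and 0.0547). In series A libraries alone these were -0.45 and -0.44 (edgeR adjusted p 0.0703 and 0.0637). In RT1-CE16-low libraries no single diet passed the test for Ets1 (edgeR adjusted p 0.106, 0.0648 and 0.061).

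Ets2 (ENSRNOG00000001647), the paralog of Ets1, moved the other way. The sham libraries ranged from 91.4 to 128 CPM (median 116) and the Glenn libraries from 122 to 178 CPM (median 135), so that the lowest Glenn libraries overlapped the highest sham libraries. The mean rose from 113 ± 12 to 143 ± 19.3 CPM (SD, n = 15 per surgery), and the fitted log2 change was 0.33 ± 0.06 (SE; edgeR adjusted p 2.89e-05). Ets2 rose on the control (0.36, edgeR adjusted p 0.00763) and deficient diets (0.42, edgeR adjusted p 0.00236). On the excess diet its log2 change was 0.21 (edgeR adjusted p 0.188), although its 5 Glenn libraries (122 to 135 CPM) lay above its 5 sham libraries (99.4 to 119.9 CPM). With no series term that value was 0.28 (edgeR adjusted p 0.0394), and on the endothelial marker scale 0.44 (edgeR adjusted p 0.00275). The control-diet and deficient-diet calls of Ets2 were lost in RT1-CE16-low libraries (edgeR adjusted p 0.165 and 0.0938). Series A alone lost the deficient-diet call (edgeR adjusted p 0.0892), and RT1-CE16-high libraries the control-diet call (edgeR adjusted p 0.0753).

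Elk3 (ENSRNOG00000004367) encodes a ternary complex factor, a partner of serum response factor that represses until it is phosphorylated. Its 15 sham libraries ranged from 438 to 572 CPM (median 517) and its 15 Glenn libraries from 409 to 682 CPM (median 558), which include both the lowest and the highest of the 30. The averaged log2 change was 0.08 (SE 0.05, edgeR adjusted p 0.193), and the values by diet were -0.06, 0.10 and 0.22 (edgeR adjusted p 0.665, 0.481 and 0.118). With the endothelial marker scale, which moved the median log2 change of all genes from -0.01 to 0.28, the value for Elk3 was 0.37 (edgeR adjusted p 1.21e-08).

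Etv6 (ENSRNOG00000005984), a repressor also called TEL, was low, with 15.4 to 24.1 CPM after sham (median 18.5) and 12.9 to 21.4 CPM after Glenn surgery (median 16.7). The ranges overlapped. Its mean fell from 18.6 ± 1.91 to 16.4 ± 2.5 CPM (SD, n = 15 per surgery), and the fitted log2 change was -0.17 ± 0.07 (SE; edgeR adjusted p 0.0479). This call was lost when any of 18 of the 30 libraries was left out, and in series A alone (log2 change -0.13, edgeR adjusted p 0.289). No single diet passed the test, with log2 changes of -0.30, -0.18 and -0.02 (edgeR adjusted p 0.0596, 0.295 and 0.942). The control-diet value was called with a term for RT1-CE16 and none for the series (edgeR adjusted p 0.0407), with limma voom (adjusted p 0.0431), with the replicate block (edgeR adjusted p 0.0405) and with the marker scores (edgeR adjusted p 0.0393).

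**Figure D2:**
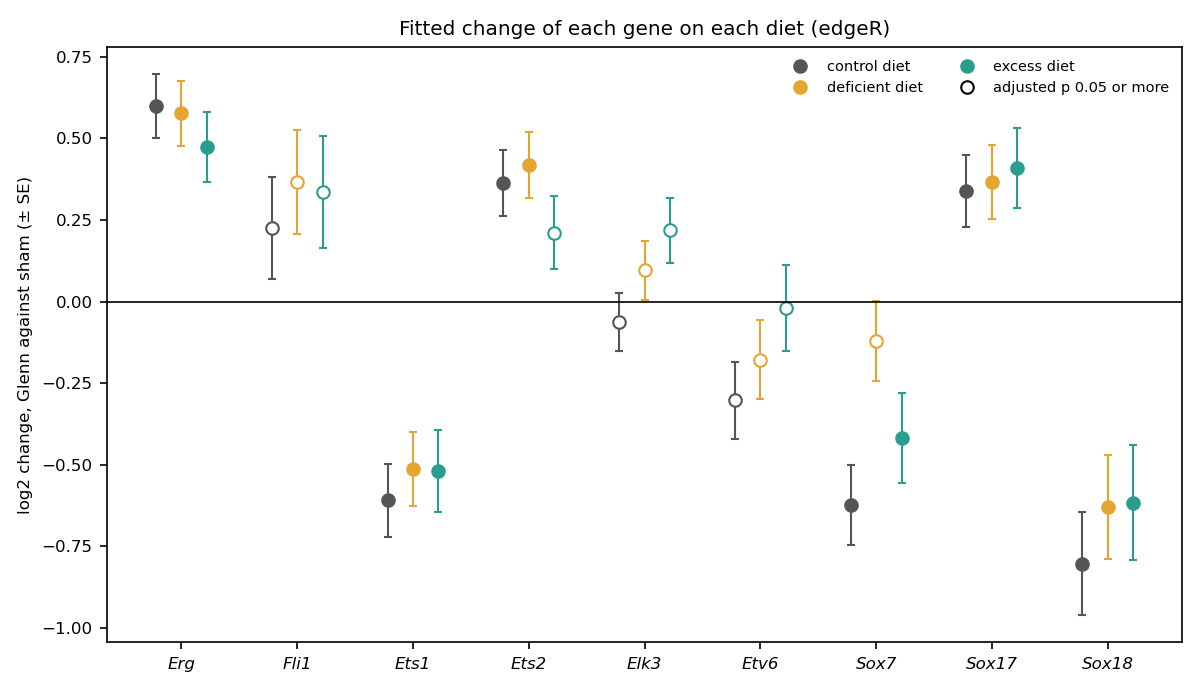
Fitted log2 change of each gene, Glenn against sham (y axis), on the control, deficient and excess diets, with bars of ± 1 SE; filled points have an edgeR adjusted p under 0.05 and open points do not. Erg and Sox17 are filled above 0 and Ets1 and Sox18 filled below 0 on all 3 diets, while Sox7 is near 0 on the deficient diet.

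Sox17 (ENSRNOG00000027357), the SOXF gene of arterial endothelium, rose on each diet. Control-diet levels of Sox17 were 242, 245, 222, 191 and 248 CPM in the sham group and 326, 311, 239, 319.8 and 255 CPM in the Glenn group. Those on the deficient diet were 233, 231, 194, 289 and 211 CPM and 297, 311, 291, 307 and 310.0 CPM. Those on the excess diet were 254, 243, 255, 252 and 278 CPM and 437, 312, 248, 309.7 and 327 CPM. Glenn libraries were above all sham libraries of the same diet on the deficient diet, and the groups overlapped on the control and excess diets, where the highest value of all was Glenn excess replicate 1. The mean went from 239 ± 27 to 307 ± 45.6 CPM (SD, n = 15 per surgery), and the fitted log2 change was 0.37 ± 0.07 (SE; edgeR adjusted p 2.48e-05). By diet the log2 change was 0.34, 0.37 and 0.41 on the control, deficient and excess diets (edgeR adjusted p 0.0249, 0.0151 and 0.0155). Without Glenn excess replicate 1 the excess-diet value was 0.23 (edgeR adjusted p 0.205). The control-diet call was lost without sham control replicate 4, Glenn control replicate 1 or Glenn control replicate 2 (edgeR adjusted p up to 0.0837). Series A libraries alone lost the deficient-diet call (edgeR adjusted p 0.0742). The control-diet and deficient-diet calls were lost in RT1-CE16-low (edgeR adjusted p 0.243 and 0.0727) and in RT1-CE16-high libraries (edgeR adjusted p 0.152 and 0.134). With leukocyte and type 2 alveolar scores in the fit, the averaged value was 0.18 (edgeR adjusted p 0.0907), and the control, deficient and excess values were 0.24, 0.13 and 0.17 (edgeR adjusted p 0.0871, 0.505 and 0.432).

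Sox18 (ENSRNOG00000016248), which acts upstream of the lymphatic regulator Prox1 in embryos, fell on each diet. On the control diet Sox18 stood at 223, 262, 259.7, 225 and 225 CPM in the sham group and at 151, 151, 141, 131 and 111 CPM in the Glenn group. Its deficient-diet levels were 279.6, 156, 184, 279 and 201 CPM and 168, 124, 129.8, 149.6 and 142 CPM. Its excess-diet levels were 273, 247, 211, 244 and 229 CPM and 195, 138, 106, 128 and 208 CPM. The groups did not overlap on the control and excess diets, and on the deficient diet sham replicate 2 lay within the Glenn range. The mean fell from 233 ± 35.8 to 145 ± 27.9 CPM (SD, n = 15 per surgery), and the fitted log2 change was -0.68 ± 0.09 (SE; edgeR adjusted p 6.15e-07), the largest averaged change of the 9 by absolute size on the TMM scale. On the endothelial marker scale it was -0.39, and Erg, Sox17, Ets2 and Fli1 had larger values (0.84, 0.66, 0.62 and 0.59). By diet the TMM-scale values of Sox18 were -0.80, -0.63 and -0.62 (edgeR adjusted p 0.000325, 0.00379 and 0.0114). Its deficient-diet value on the endothelial marker scale was -0.34 (edgeR adjusted p 0.0507). Without Glenn excess replicate 2 the excess-diet value was -0.55 (edgeR adjusted p 0.055). In series A libraries alone it was -0.52 (edgeR adjusted p 0.0618). RT1-CE16-low libraries alone lost the deficient-diet and excess-diet calls of Sox18 (edgeR adjusted p 0.0508 and 0.093). RT1-CE16-high libraries alone lost the deficient-diet call (edgeR adjusted p 0.134).

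While Sox18 fell, the lymphatic markers rose: 6 of 6 passed the test, and their summed level went from a range of 1090 to 2004 CPM after sham to 2468 to 5101 CPM after Glenn surgery. Prox1 itself rose by 1.12 on the log2 scale (SE 0.15, edgeR adjusted p 3.29e-07). Mural markers (pericytes and smooth muscle) also rose, 6 of 6, from 126 to 255 CPM to 341 to 1334 CPM in sum. Of the 6 general endothelial markers 4 fell and 1 rose, and their sum ranged from 6805 to 8549 CPM after sham and from 5044 to 7218 CPM after Glenn surgery. Arterial markers moved both ways beside the rise of Sox17, with 4 of 6 higher and 2 lower. For general capillary markers 3 of 4 were lower and 0 higher, and the median sum was 7032 CPM (sham) against 3086 CPM (Glenn). Of 6 aerocyte capillary markers 3 were lower and 1 higher, with median sums of 1337 CPM (sham) against 898 CPM (Glenn). Venous markers had 4 of 6 lower and 1 higher, and platelet markers 5 of 6 lower and 0 higher. None of the lymphatic, mural, endothelial or arterial markers was at 0 in the median library of a surgery. The part of any of these lists in the changes of the 9 genes was not tested.

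Sox7 (ENSRNOG00000012049), the third SOXF gene, ranged from 277 to 496 CPM in the sham libraries (median 393) and from 223 to 378 CPM in the Glenn libraries (median 288). Its mean fell from 379 ± 56.1 to 295 ± 45.8 CPM (SD, n = 15 per surgery), and the fitted log2 change was -0.39 ± 0.07 (SE; edgeR adjusted p 5.17e-05). On the control diet its levels did not overlap, at 404, 394, 496, 351 and 393 CPM in the sham group and 288, 252, 286, 270.3 and 225 CPM in the Glenn group. On the deficient diet they overlapped, at 393, 277, 349, 443 and 300.3 CPM and 285, 353, 269, 378 and 299 CPM. The log2 change was -0.62 (SE 0.12, edgeR adjusted p 0.000268) on the control, -0.12 (SE 0.12, edgeR adjusted p 0.519) on the deficient and -0.42 (SE 0.14, edgeR adjusted p 0.0278) on the excess diet. The excess-diet call was lost with no series term (-0.31, edgeR adjusted p 0.0686) and without sham excess replicate 1, sham excess replicate 4 or Glenn excess replicate 2 (edgeR adjusted p up to 0.173). It was also lost in series A alone (edgeR adjusted p 0.0765). The control-diet and excess-diet calls were lost in RT1-CE16-low libraries (edgeR adjusted p 0.0618 and 0.0802) and on the endothelial marker scale (edgeR adjusted p 0.0906 and 0.296). The difference between diets did not pass the interaction test (edgeR p 0.025, adjusted p 0.798). On the endothelial marker scale the averaged value was -0.10 (edgeR adjusted p 0.237), below that scale's median of 0.28, and the deficient-diet value took the other sign (0.15).

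The split inside each family can also be read within a library, where the ratio of the counts of a pair of genes does not depend on how libraries are scaled. The pairs were picked after the levels had been seen, so the ratios are given with no test, and a ratio reflects gene lengths as well as expression. For a gene called higher over one called lower, a gap between surgeries follows in part from those calls and adds no separate support. A ratio does not show which gene moved, and how many other pairs of genes separate the surgeries was not counted. Counts of Sox17 over Sox18 were 1.09, 0.935, 0.853, 0.849 and 1.1 in sham and 2.17, 2.06, 1.7, 2.45 and 2.29 in Glenn libraries on the control diet. On the deficient diet the ratio was 0.834, 1.49, 1.06, 1.04 and 1.05 in sham and 1.77, 2.51, 2.24, 2.05 and 2.19 in Glenn libraries. For the excess diet it was 0.929, 0.983, 1.2, 1.03 and 1.22 and 2.25, 2.27, 2.34, 2.41 and 1.57. Sox17 thus had about as many counts as Sox18 in sham libraries, with a mean ratio of 1.04 ± 0.170 (SD, n = 15), and more in every Glenn library, with 2.15 ± 0.278 (SD, n = 15). The highest sham library, at 1.49, was below the lowest Glenn library, at 1.57.

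Counts of Erg over Ets1 also separated the surgeries. Sham libraries ranged from 0.162 to 0.265 (median 0.207, n = 15) and Glenn libraries from 0.369 to 0.514 (median 0.440, n = 15). Fli1 over Ets1 went from 0.270 to 0.568 in sham to 0.491 to 0.938 in Glenn libraries, with some overlap. Sox17 over Sox7 overlapped slightly, at 0.447 to 0.854 and 0.810 to 1.40. Sox7 over Sox18 overlapped as well, at 1.40 to 1.91 and 1.62 to 2.86, and so did Erg over Ets2, at 0.658 to 1.38 and 0.751 to 1.29. Among RT1-CE16-high libraries, Sox17 over Sox18 was 0.849 to 1.10 in 6 sham and 1.57 to 2.45 in 7 Glenn libraries.

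**Figure D3:**
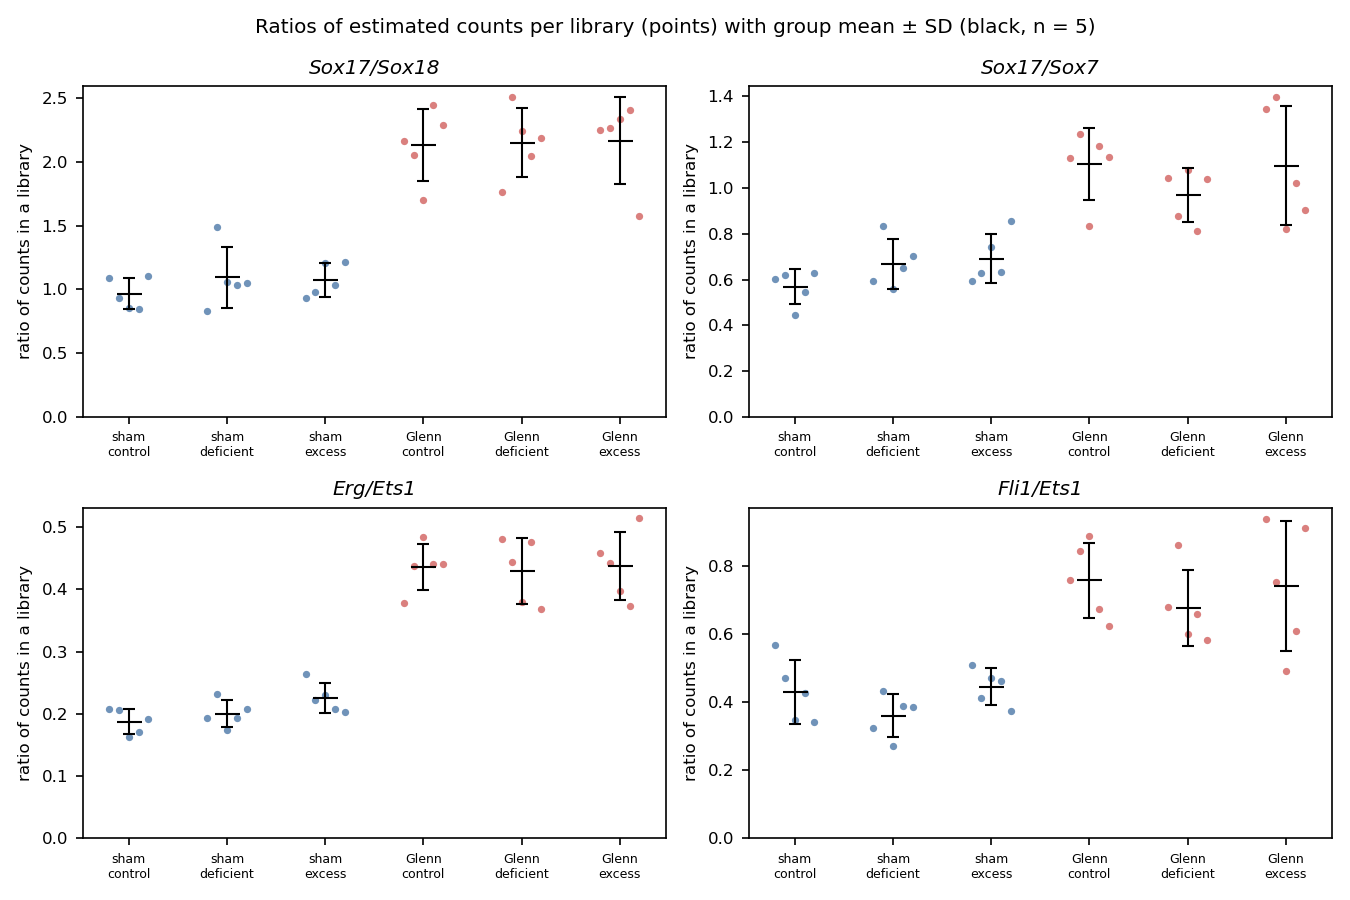
Ratio of the counts of a pair of genes within each library (y axis from 0, no unit) in the 6 groups, with group mean ± SD in black (n = 5). The sham and Glenn points do not overlap for Sox17/Sox18 (highest sham 1.49, lowest Glenn 1.57) and Erg/Ets1 (0.265 and 0.369), and they do for Sox17/Sox7 and Fli1/Ets1.

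Vitamin A content changed none of the 9 genes past the threshold within either surgery. After sham surgery 0 of 9 changed with the deficient against the control diet (0% of all genes by edgeR; 2 of 9 at an unadjusted p under 0.05), 0 with the excess against the control diet (0.241%; 1 of 9 unadjusted) and 0 with the excess against the deficient diet (0.0124%; 0 of 9 unadjusted). After Glenn surgery 0 of 9 changed in the corresponding comparisons (0.00618%, 1.47% and 0% of all genes by edgeR), with 1, 3 and 1 of 9 at an unadjusted p under 0.05. The surgery by diet interaction called 0 of 9 (0.00618% of all genes; 1 of 9 unadjusted, Sox7). DESeq2 called 1 of the 9, Erg after sham surgery on the excess diet, and none in the other comparisons of diets.

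Erg was the gene with a diet difference near the threshold. After sham surgery its 5 excess-diet libraries (88.6 to 137 CPM) were all above its 5 control-diet libraries (67.1 to 88.4 CPM), by a narrow margin. Etv6 libraries also separated in this comparison, lower on the excess diet, with an edgeR adjusted p of 0.564. For Erg the separation alone is therefore weak. The log2 difference of Erg was 0.39 (SE 0.10, edgeR adjusted p 0.0827), and DESeq2 gave 0.39 (adjusted p 0.0208). It was called by edgeR with sex in the fit (adjusted p 0.0443) and with the replicate number as a block (adjusted p 0.0246). All 5 sham excess libraries but only 2 sham control libraries were RT1-CE16-low, and with a term for RT1-CE16 and none for the series the edgeR adjusted p was 0.419. Leaving out sham excess replicate 1 gave 0.29 (edgeR adjusted p 0.301), and leaving out sham control replicate 4 gave 0.33 (edgeR adjusted p 0.282). After Glenn surgery the excess against control difference of Erg was 0.27 (edgeR adjusted p 0.236), and the libraries overlapped.

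Ordered by mean level, the 3 Glenn groups stood above the 3 sham groups for Erg, Fli1, Ets2 and Sox17, and below them for Ets1, Etv6, Sox7 and Sox18. Within these blocks, neighbouring groups overlapped for each gene. For Erg the order from the top was Glenn excess (144 CPM), Glenn deficient (141), Glenn control (125), sham excess (108), sham deficient (92.9) and sham control (82.6), so both surgeries had the same order of diets. For Elk3 the order mixed surgeries, from Glenn excess (573 CPM) to Glenn control (505 CPM).

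Erg and Ets2 are neighbours on rat chromosome 11, with 2 genes and 0 protein-coding genes between them in RefSeq's GRCr8 annotation, and both rose. Fli1 and Ets1 are likewise neighbours on chromosome 8, with 1 gene and 0 protein-coding genes between them, and they moved in opposite directions. RefSeq promoters (GRCr8) were at hand for 3 of the 9 genes, and the 250 bases before the start are shown for the 2 neighbours that rose and for Elk3, which was not called on the TMM scale. Capitals mark the ETS core, GGAA or its reverse complement TTCC.
Erg, chr11:48251567-48251816, minus strand: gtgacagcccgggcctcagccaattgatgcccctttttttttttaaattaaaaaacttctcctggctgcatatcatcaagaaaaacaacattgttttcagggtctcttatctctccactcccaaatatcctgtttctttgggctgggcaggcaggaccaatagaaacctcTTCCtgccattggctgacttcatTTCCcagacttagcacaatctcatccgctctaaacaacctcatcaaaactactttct
Ets2, chr11:48490807-48491056, plus strand: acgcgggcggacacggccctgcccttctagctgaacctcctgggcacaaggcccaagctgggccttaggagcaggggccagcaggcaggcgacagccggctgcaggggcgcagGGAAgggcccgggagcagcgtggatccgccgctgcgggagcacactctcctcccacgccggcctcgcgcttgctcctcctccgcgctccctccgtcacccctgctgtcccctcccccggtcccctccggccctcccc
Elk3, chr7:29691168-29691417, minus strand: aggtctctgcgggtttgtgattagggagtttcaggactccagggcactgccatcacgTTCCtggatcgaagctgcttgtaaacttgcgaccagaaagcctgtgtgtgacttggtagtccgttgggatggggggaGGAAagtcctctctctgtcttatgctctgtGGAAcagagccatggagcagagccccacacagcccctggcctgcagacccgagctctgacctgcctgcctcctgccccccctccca
The Erg window held 2 ETS cores, the Ets2 window 1 and the Elk3 window 3. Such cores occurred in 93.2% of 33469 windows of the same length (median 3 per window), so their presence does not set these windows apart. The SOX core ACAAT, or ATTGT on the other strand, occurred 2 times before Erg and not before Ets2 or Elk3, and was in 30.02% of all windows. The Erg and Elk3 windows lie inside the annotated span of their gene in that annotation. GC content was 43.2% for Erg, 74.4% for Ets2 and 58.8% for Elk3.

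Of the endothelial genes known from the literature as targets of ETS or SOXF factors, 25 of 25 were tested, and averaged over diets 6 rose and 17 fell. Among all genes, 23.4% rose and 24.7% fell. The median log2 change of the 25 was -0.35, against -0.01 for all genes tested. The list holds all 6 general endothelial markers, so it is not separate from them. On the scale set by those markers 8 rose and 11 fell (median -0.07, against 0.28 for all genes), and in RT1-CE16-low libraries alone 6 rose and 12 fell. Those that rose include Flt4, the VEGF-C receptor, from 77 ± 14.9 to 154 ± 18.9 CPM (SD, n = 15 per surgery; log2 change 1.00), and Nos3, endothelial nitric oxide synthase, from 81.9 ± 10.1 to 154 ± 35.2 CPM (log2 change 0.91). Robo4, an endothelial guidance receptor, rose from 71.1 ± 9.35 to 131 ± 15.3 CPM (log2 change 0.89). Flt4 is also one of the lymphatic markers.

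Other targets fell. Eng, the BMP9 co-receptor endoglin, fell from 2287 ± 283 to 821 ± 179 CPM (SD, n = 15 per surgery; log2 change -1.45, SE 0.07). Thbd, the anticoagulant thrombomodulin, fell from 3785 ± 341 to 1419 ± 314 CPM (log2 change -1.40, SE 0.08), and Icam2, a junctional adhesion molecule that ERG is known to activate, from 535 ± 49.2 to 291 ± 38.9 CPM (log2 change -0.86, SE 0.05). For each of these 6 targets the 15 Glenn and 15 sham libraries did not overlap, a separation seen for 5.83% of all genes tested. The 6 were named for their smallest adjusted p in this same comparison, so the separation adds no separate support. Pecam1 and Rhoj passed no test, with -0.16 (edgeR adjusted p 0.0692) and 0.01 (edgeR adjusted p 0.804).

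By diet, 4 of the 25 targets rose and 16 fell on the control diet, beside 11.8% and 13.1% of all genes. On the deficient diet 6 rose and 14 fell (13.7% and 13.7% of all genes), and on the excess diet 4 rose and 8 fell (11.6% and 10.4%). Their median log2 change was -0.14 on the excess, -0.49 on the control and -0.47 on the deficient diet. The interaction test called 0 of the 25. After Glenn surgery the excess diet raised 3 of the 25 relative to the control diet and lowered 0 (0.89% and 0.58% of all genes), with a median of 0.25 (0.02 for all genes).

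**Figure D4:**
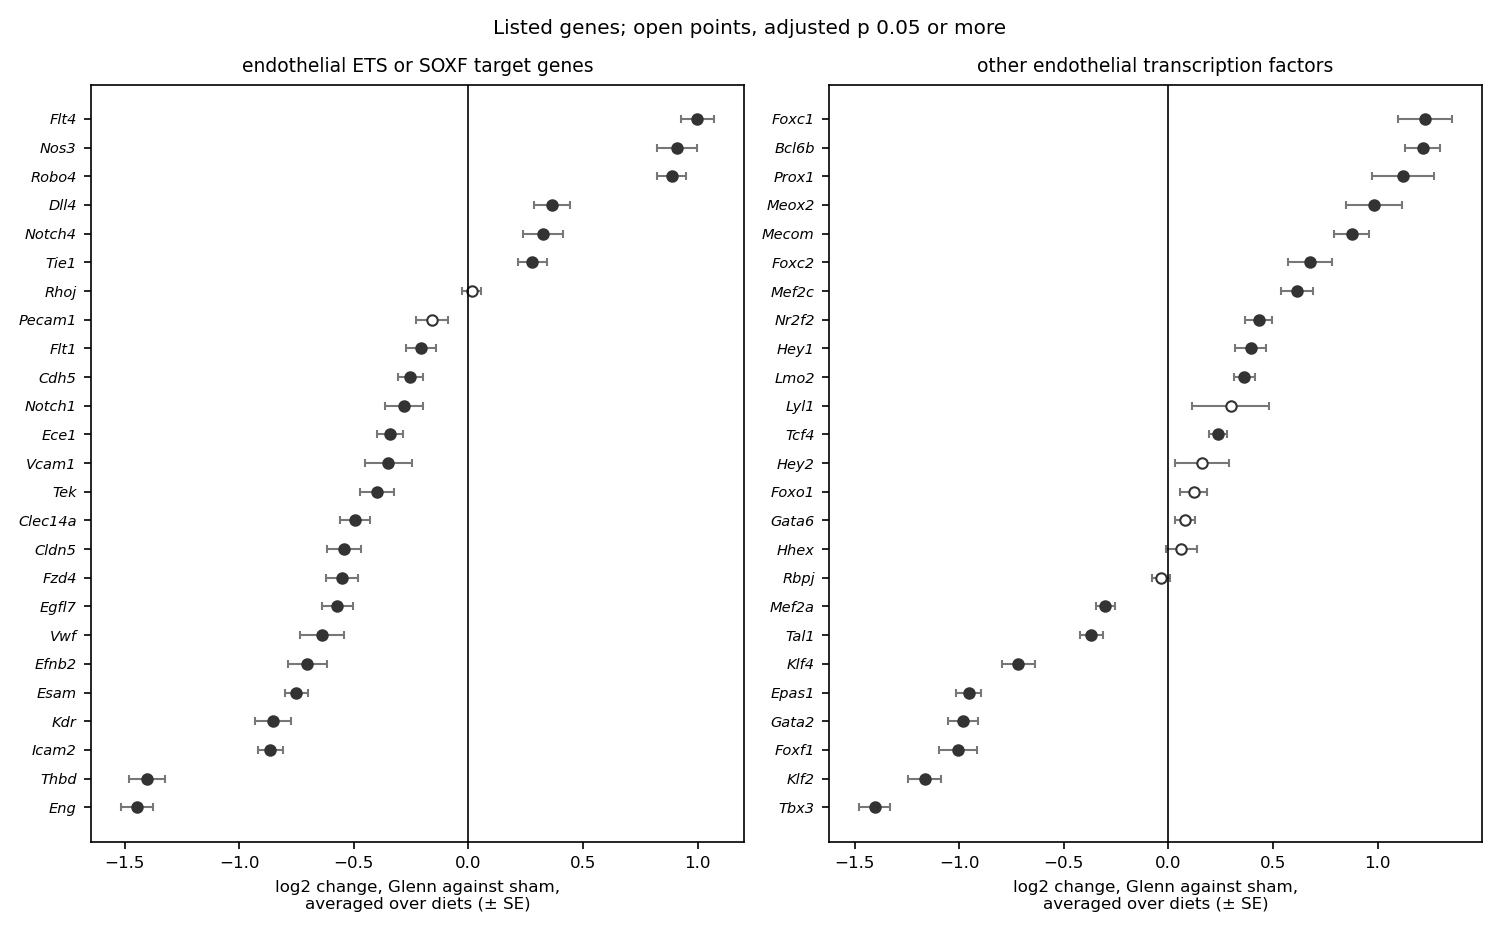
Log2 change with Glenn surgery averaged over diets (x axis, ± SE) for 25 endothelial genes known as ETS or SOXF targets (left) and 25 other endothelial transcription factors (right); open points have an edgeR adjusted p of 0.05 or more. On the left 17 filled points lie below 0 and 6 above, and on the right 8 below and 11 above.

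Other transcription factors of endothelial cells changed in both directions, 11 higher and 8 lower of 25 tested, with a median log2 change of 0.16. Among all genes 23.4% were higher and 24.7% lower. On the endothelial marker scale, where most called genes were higher, 17 of the 25 were higher and 6 lower. Bcl6b, a repressor downstream of VEGF signals, rose from 104 ± 13.9 to 246 ± 49.2 CPM (SD, n = 15 per surgery), Mecom, an arterial zinc finger factor, from 65.7 ± 8.44 to 120.2 ± 22.1 CPM, and Foxc1, a forkhead factor of vessel development, from 3.07 ± 0.523 to 6.96 ± 2.04 CPM. Tbx3, a T-box repressor, fell from 273 ± 23.3 to 103 ± 18.4 CPM. Epas1, the hypoxia-inducible factor HIF-2 alpha, fell from 5411 ± 506 to 2765 ± 442 CPM, and Klf2, which responds to shear stress, from 1474 ± 283 to 656 ± 103 CPM. The log2 changes of these 6 were 1.21, 0.88, 1.23, -1.40, -0.95 and -1.16.

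Of the other ETS genes, 20 of 21 were in the table and 17 were tested. Averaged over diets 5 rose and 5 fell (median log2 change -0.12), beside 23.4% and 24.7% of all genes. On the endothelial marker scale, where most called genes were higher, 9 rose and 1 fell. Etv4, a growth factor-induced ETS gene, was low but rose in every Glenn library relative to every sham library, from 2.37 ± 0.715 to 9.05 ± 1.99 CPM (SD, n = 15 per surgery; log2 change 1.93, SE 0.14). Erf, a repressor, and Elk4, a relative of Elk3, rose by 0.49 and 0.17 on the log2 scale, and with the marker scores in the fit both calls were lost (edgeR adjusted p 0.0603 and 0.736). Spib, a lymphoid ETS gene, had a log2 change of -0.92, Ehf, an epithelial one, of -0.54, and Elf2 of -0.17. The change of Ehf stood beside the fall of the type 2 alveolar markers, and with the marker scores in the fit it was -0.14 (edgeR adjusted p 0.357). Elf2 took the other sign on the endothelial marker scale (0.13).

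Of the other SOX genes, 13 were in the table and 10 tested, with 4 higher and 5 lower, beside 23.4% and 24.7% of all genes. Their median log2 change was -0.01, and it was -0.40 over 13 genes with no filter on low counts, so it hangs on which low genes are tested. Sox4, a SOXC gene, rose from 117 ± 15.6 to 161 ± 25.5 CPM (SD, n = 15 per surgery; log2 change 0.46), and Sox13, a SOXD gene, fell from 256 ± 24.5 to 166 ± 21.9 CPM (log2 change -0.62) with no overlap between surgeries. Sox6 and Sox11 rose from low levels, by 0.95 and 1.40, and Sox9, which is also made by epithelium, and Sox15 had log2 changes of -0.93 and -0.65. Scores for leukocyte and type 2 markers in the fit ended the calls of Sox4 (edgeR adjusted p 0.0645), Sox6 (0.0707) and Sox11 (0.298).

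Once each group's mean was subtracted from log2(CPM + 1), some of the 9 genes varied together between libraries of a group. Of 36 pairs, 15 had a correlation with a permutation p (100000 permutations, two-sided, adjusted over the 36) under 0.05, and all 15 were above 0. Several of the 15 did not pass by the rank correlation rho. Among these were Fli1 with Etv6 (adjusted permutation p of rho 0.0538) and Sox17 with Sox18 (adjusted permutation p of rho 0.0653). Without the 2 farthest libraries, r of Sox17 with Sox18 went from 0.55 to 0.37. The highest r were those of Etv6 with Sox17 (0.73, adjusted permutation p 0.00492) and Ets1 with Elk3 (0.70, adjusted permutation p 0.00576). Erg and Elk3 had r 0.67 and rho 0.71 (permutation p 0.00016 and 0.00019; adjusted 0.00396 and 0.00639; 30 libraries), with r 0.70 without the 2 libraries farthest from the median. Within the 17 libraries with low and the 13 with high RT1-CE16, r was 0.65 and 0.72. Sox7 and Sox18 had r 0.59 and rho 0.59 (permutation p 0.00689 and 0.00384; adjusted 0.0248 and 0.0230), 0.56 without the 2 farthest and 0.63 and 0.69 in the low and high libraries. Erg and Fli1 had r 0.68 and rho 0.63 (permutation p 0.00022 and 0.00071; adjusted 0.00396 and 0.00639), 0.68 without the 2 farthest, 0.79 in the low and 0.35 in the high libraries. All pairs share the scaling of the same libraries. The permutations ran within groups and kept neither the series nor the RT1-CE16 level. How often other pairs of genes correlate as strongly was not counted, so the 15 pairs do not set these genes apart.

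The genes most like each member were sought among the 9297 genes averaging 10 CPM or more, by Pearson's r over the 30 libraries with group means subtracted. For Sox18 they were Id3, an inhibitor of DNA binding that BMP signals induce (r 0.87, rho 0.81), and Pelo (r 0.83). Id3 was also the gene most like Sox18 when group means were kept (r 0.96). Erg was most like Ripply3 (r 0.82) and Pgm2 (r 0.82), Fli1 like Tmbim4 (r 0.87) and Phc2 (r 0.86), and Ets1 like Ggta1 (r 0.86) and Agfg1 (r 0.83). Ets2 was most like Plk2 (r 0.76) and Marcks (r 0.70), Elk3 like Oaz2 (r 0.82) and Hdac7 (r 0.79), and Etv6 like Yrdc (r 0.75) and Tlnrd1 (r 0.75). For Sox7 they were Tp53i11 (r 0.70) and Ttc3 (r 0.67), and for Sox17 Rgs3 (r 0.82) and Coro2b (r 0.75).

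**Figure D5:**
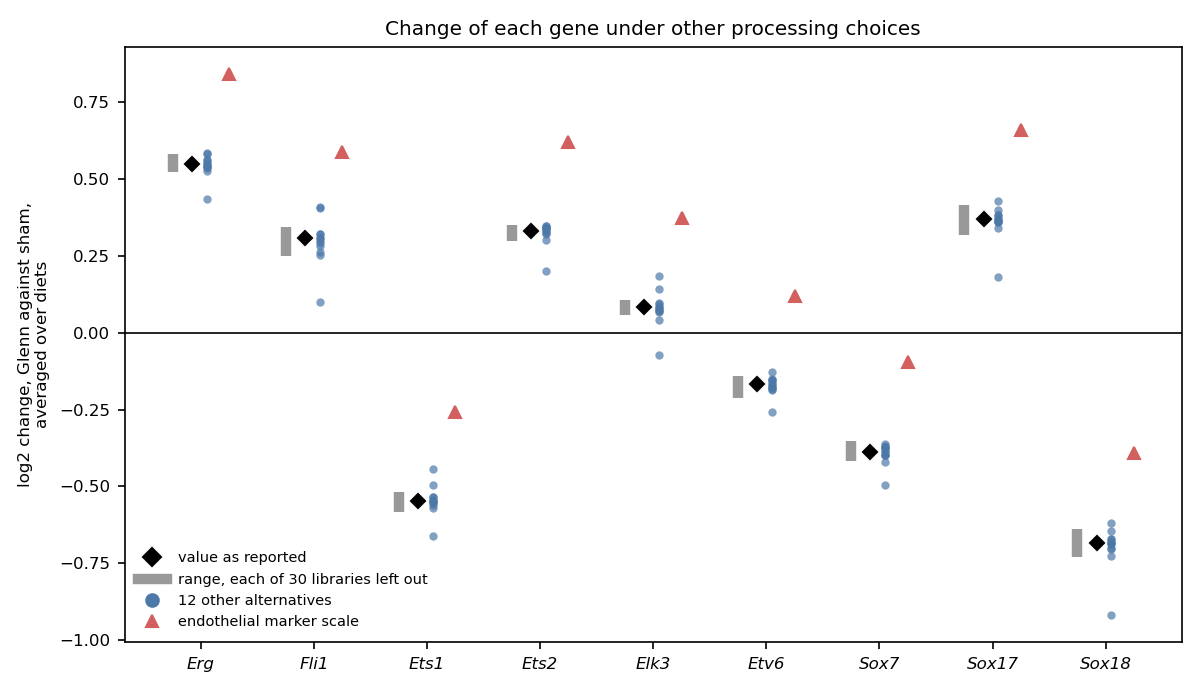
Averaged log2 change of each gene, Glenn against sham (y axis), as reported (black diamond), as a range with each of the 30 libraries left out (grey), under 12 other processing choices (blue) and with libraries scaled to their 6 endothelial markers (red triangle). Erg, Fli1, Ets2 and Sox17 stay above 0 and Ets1, Sox7 and Sox18 below 0 throughout, Etv6 is above 0 on the endothelial scale, and Elk3 lies on both sides of 0.

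Over the 12 other choices set out for these fits, the averaged log2 change of Erg ranged from 0.44 to 0.58, that of Ets1 from -0.66 to -0.44, that of Sox17 from 0.18 to 0.43 and that of Sox18 from -0.92 to -0.62. On the endothelial marker scale, which called 62.1% of all genes, 5 of the 9 were higher and 2, Ets1 and Sox18, lower.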

How the data were processed

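Gene expression was measured by RNA-seq in 30 libraries of CD31-sorted rat lung cells, in 6 groups of 5 set by surgery and diet, as the labels give them. Per the labels' protocols, RNA came from a PureLink kit and libraries from the SMART-Seq Ultra Low v4 kit, which does not mark strand, so overlapping antisense reads cannot be told apart. Per the submitters' processing notes, FastQC, Trim Galore, Picard, STAR, Salmon and the builds mRatBN7.2 and rn7 were used; their versions, order and settings are not given in the sources used here. The authors deposited estimated counts per gene, of which 13.6% of values were not whole numbers.

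From these, the counts were rounded. With edgeR 4.0.16, filterByExpr at a minimum count of 10 and a minimum total of 15 left 16171 genes, and libraries were scaled by TMM (factors 0.938 to 1.06). The quasi-likelihood fit (robust) held all 30 libraries, with 6 group means and the library series. Benjamini-Hochberg adjustment ran over all genes tested, with a threshold of 0.05. A standard error is the absolute log2 change over the root of its F statistic. RT1-CE16 was called high above 100 CPM, and libraries male above 10 CPM of Ddx3y (13 male, 17 female). Pairs of libraries within groups had a chi-square per degree of freedom of 20.1 to 119, so none was a repeat of another.

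All 9 members are named. Each of 4 gene lists adds the 3 rising and 3 falling genes of smallest adjusted p, and a further rule adds the 2 genes most like each member. Members and lists were chosen with earlier results of these data known. The steps were tested on simulated data. Alternatives were no series term, series A alone, the RT1-CE16 level or sex as a term, RT1-CE16-low libraries, DESeq2 1.42.0 or its size factors, limma 3.58.1 voom, no filter, a newer dispersion method, a block for the replicate number, leukocyte and type 2 scores as terms, and fits lacking 1 library at a time. The endothelial marker scale, RT1-CE16-high libraries and the count ratios were chosen after seeing the data. Replicate numbers come from the sample titles. Of the 15 pairs of groups, 1 had a correlation over 0.1 for every pair of same-numbered libraries, sham control with sham deficient (0.266 to 0.427), where replicates 3 to 5 of both are RT1-CE16-high. The lowest correlations between sham and Glenn libraries of a diet were -0.264, -0.0989 and -0.0282 on the control, deficient and excess diets. R 4.3.3, scipy 1.17.1 and matplotlib 3.10.9 were used.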

Additional observations from a re-analysis of the deposited data

Results flagged for a closer look

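Among 96 sets of 5 libraries, formed by the 9 genes, 6 count ratios and the total count in the 6 groups, 7 had 1 value well apart from its 4 companions, and chance gives about 4.8 such sets. The share given is the distance to the next value over the whole range of the 5, with the 95% critical value of Dixon's test at 0.71. Erg in sham control replicate 4 was low, at 67.1 CPM against 82.9 to 88.4 CPM (share 0.742), and this library bears on the diet difference of Erg after sham surgery. Erg in Glenn excess replicate 1 was high, at 174 CPM against 129 to 141 CPM (share 0.726). Fli1 in Glenn deficient replicate 2 was high, at 297 CPM against 200 to 207 CPM (share 0.923). Etv6 in sham control replicate 1 was high, at 24.1 CPM against 18.7 to 19.7 CPM (share 0.808). The ratio of Sox17 to Sox18 counts was low in Glenn excess replicate 5, at 1.57 against 2.25 to 2.41 (share 0.804). The ratio of Sox17 to Sox7 counts was low in Glenn control replicate 3, at 0.835 against 1.13 to 1.24 (share 0.739). The total count of Glenn control replicate 2 was high, at 77.6 M against 38.2 to 42.0 M (share 0.904).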

How the results depend on the processing

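The number of the 9 genes changed with Glenn surgery averaged over diets stayed within 1.5 times of 8 in every fit run, a wide band for 9 genes. With any 1 library left out it was 7 or 8. With leukocyte and type 2 alveolar scores in the fit, the averaged calls of Fli1 (edgeR adjusted p 0.58) and Sox17 (edgeR adjusted p 0.0907) were lost. On single diets the number of genes changed moved with fewer libraries: in series A alone it was 2 for the deficient and 2 for the excess diet, in RT1-CE16-low libraries 2, 1 and 2 for control, deficient and excess, and in RT1-CE16-high libraries 3 on the deficient diet. With leukocyte and type 2 alveolar scores as covariates it was 3 for the deficient and 3 for the excess diet. These fits have fewer residual degrees of freedom. In library subsets the lost calls did not all have smaller log2 changes. On the deficient diet in series A, Sox17 had 0.374 against 0.368 in the main fit, and Ets1 -0.449 against -0.512. With the scores in the fit, the genes whose calls were lost had smaller log2 changes. For the deficient diet these were 0.23 in place of 0.42 for Ets2 and 0.13 in place of 0.37 for Sox17. For the excess diet they were 0.17 in place of 0.41 for Sox17 and 0.34 in place of 0.47 for Erg. The cause of the lost calls was not tested. Erg on the excess against the control diet after sham surgery was called with sex as a term, by DESeq2 and with the replicate block, each giving 1 call there. The replicate block also called Fli1 on the deficient diet (0.43, edgeR adjusted p 0.0216) and Etv6 on the control diet (-0.31, edgeR adjusted p 0.0405). Leaving out 1 library gave 3 to 6 changed genes on the excess diet, with 3 without Glenn excess replicate 2. For the RT1-CE16-high, score and leave-out fits no share of all genes is given, so their counts do not set the 9 genes apart. Off the endothelial marker scale, signs turned only for Elk3 and for Etv6 on the excess diet. Etv6 there had 0.068 in series A, 0.068 in RT1-CE16-low libraries, and -0.18 to 0.056 with 1 library left out. Elk3 turned on the control diet (0.081 in RT1-CE16-low libraries, and -0.12 to 0.0038 with 1 library left out) and, with the scores, on the deficient diet (-0.11) and averaged (-0.072). On the endothelial marker scale signs turned for Elk3 on the control diet (0.31), Sox7 on the deficient diet (0.15) and Elf2 averaged (0.13). Etv6 turned on that scale in each comparison (control 0.065, deficient 0.092, excess 0.20, averaged 0.12), among them its control-diet value of -0.30 on the TMM scale. The median log2 change of all genes was higher on that scale than on the TMM scale. The summed endothelial markers that set it had a median of 7682 CPM (sham) against 6377 CPM (Glenn). Which of the 2 scales is nearer to the change per cell was not tested, nor was the cause of any turn. Depth did not limit the detection of the 9 genes, and the spread among 5 libraries sets the precision.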
